A study of Rattus norvegicus with 4 samples.

Results

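The 35 genes described here mark microglia, which are the macrophages that live in the brain, and other cells of the myeloid lineage. They were taken by gene symbol, from a list drawn up with earlier results of these data known. Each of the 35 had 1 array probe that the probe annotation ties to that symbol alone, out of 18166 genes with such a probe. The values come from 4 cultures of primary rat astrocytes, the support glia that surround neurons and vessels, with 1 array for each culture. The cells came from the cerebral cortex of Sprague-Dawley pups aged 1 day, and serum-free medium was used for 2 days with the aim of removing microglia and meningeal cells. All 4 cultures carried an siRNA. The first had control siRNA and no treatment, the second control siRNA with interferon-γ (IFN-γ), the third control siRNA with IFN-γ and a compound that the labels call GW, and the fourth SHP siRNA with IFN-γ and GW. Treatment lasted 3 h. Doses, the number of pups behind a culture and the sequence of the siRNAs are not stated in the sources used here.

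Microglia depend on signalling through the receptor Csf1r, and their identity is set by transcription factors led by PU.1, the product of Spi1. They sense neurons and debris with surface receptors such as Cx3cr1 and Trem2, take up and digest material, secrete complement C1q and make superoxide with an NADPH oxidase. They are a common companion of cultured neonatal astrocytes. When activated they exchange part of this resting programme for an inflammatory one.

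The promoter letters of several marker genes are shown because 16 of the 25 genes with a promoter window held a PU box, the letters GAGGAA that PU.1 and its relative Spi-B bind. That is 64.0% of the marker genes with a window, beside 27.6% of 27457 rat genes. The windows run from 250 bases before to 50 bases after the gene start in RefSeq (build GRCr8). Where a gene has several windows the one farthest upstream was read, and both strands were searched. The PU box holds the GGAA core that other ETS family factors also bind, so a match says nothing of which factor binds. Of the 5 genes shown, Lrrc25 and Gpr34, whose values were lower with IFN-γ, and Ptprc, lower with GW, hold the box. Cx3cr1, lower with IFN-γ, and Spib, higher with IFN-γ, do not hold it in this window. Capitals mark the box, which reads TTCCTC where it lies on the other strand, and all are written 5′ to 3′ along the gene.
Lrrc25, GRCr8 chr16:18847599-18847898, minus strand: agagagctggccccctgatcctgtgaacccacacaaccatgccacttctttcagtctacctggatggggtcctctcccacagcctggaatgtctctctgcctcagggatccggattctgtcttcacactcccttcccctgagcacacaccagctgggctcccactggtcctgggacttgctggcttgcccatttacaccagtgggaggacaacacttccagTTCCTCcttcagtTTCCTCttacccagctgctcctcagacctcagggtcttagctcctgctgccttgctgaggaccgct
Gpr34, GRCr8 chrX:11785787-11786086, minus strand: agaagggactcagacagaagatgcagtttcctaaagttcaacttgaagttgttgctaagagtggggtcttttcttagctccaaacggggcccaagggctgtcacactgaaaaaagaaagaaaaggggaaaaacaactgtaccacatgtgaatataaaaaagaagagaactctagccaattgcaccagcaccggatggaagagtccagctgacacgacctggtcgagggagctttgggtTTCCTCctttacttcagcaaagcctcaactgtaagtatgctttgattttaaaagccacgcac
Ptprc, GRCr8 chr13:52259697-52259996, minus strand: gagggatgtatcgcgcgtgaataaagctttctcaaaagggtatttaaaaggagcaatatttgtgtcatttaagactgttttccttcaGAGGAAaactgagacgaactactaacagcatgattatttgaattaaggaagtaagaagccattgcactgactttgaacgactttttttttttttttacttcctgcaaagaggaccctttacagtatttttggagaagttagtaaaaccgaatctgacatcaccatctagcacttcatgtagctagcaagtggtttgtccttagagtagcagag
Cx3cr1, GRCr8 chr8:128677017-128677316, minus strand: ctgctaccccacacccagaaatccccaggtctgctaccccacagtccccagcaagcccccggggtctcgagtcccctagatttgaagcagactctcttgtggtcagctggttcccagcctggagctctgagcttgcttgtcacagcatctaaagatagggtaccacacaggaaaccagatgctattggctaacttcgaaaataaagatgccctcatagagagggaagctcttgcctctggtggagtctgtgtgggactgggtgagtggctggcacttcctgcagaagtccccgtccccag
Spib, GRCr8 chr1:104161246-104161545, minus strand: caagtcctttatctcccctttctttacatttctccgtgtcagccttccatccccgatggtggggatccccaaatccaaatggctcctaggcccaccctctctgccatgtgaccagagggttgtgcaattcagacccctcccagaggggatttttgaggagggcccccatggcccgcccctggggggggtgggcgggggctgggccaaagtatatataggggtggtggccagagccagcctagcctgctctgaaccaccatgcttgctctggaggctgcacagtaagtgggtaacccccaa
Lrrc25 has a pair of boxes, which begin 29 and 16 bases before the gene start. Those of Gpr34 and Ptprc begin 12 and 163 bases before it. Other letters were searched in the same windows. The core of the interferon-stimulated response element (ISRE), GAAA and GAAA with any 2 letters between, stood in 2 of the 25 (Cybb and Ncf1) beside 3.77% of all genes, and TGANTCA, bound by AP-1, in 4 (Trem2, Cd68, Cybb and Hcls1) beside 7.30%. An NF-κB pattern, GGGA and TTCC with any 2 letters between, stood in 0 of the 25 windows and in 1.28% of all genes. The ISRE core and the PU box can share bases.

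The 4 arrays were alike in scale, with medians between 5.79 and 5.87 on the log2 scale over 29489 probes. The siRNA target Nr0b2, which encodes SHP, was 3.35-fold lower with SHP siRNA, from values below the median of the table. With 1 array a group there is no replicate and no test between conditions. A gene is called when 2 arrays differ at least 2-fold, which is 1 on the log2 scale.

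The cultures held transcripts of the macrophage lineage, which includes microglia, in spite of the depletion step. Microglia and other macrophages are not told apart by the counts that follow. Of the 35 marker genes, 33 stood at or above 5.83 (the median over every probe and array) in the untreated culture, beside 61.6% of all 18166 genes. The counts were 34, 33 and 34 in the other cultures in the order above, beside 61.6%, 62.4% and 62.2%. Cd163, a haemoglobin scavenger receptor of border and tissue macrophages, stood between 4.56 and 4.67 on all 4 arrays and was the 1 gene below 5.83 throughout. Markers of other leukocytes were mostly below that level. Of 10 neutrophil and mast cell markers 1 reached it in the untreated culture, and of 9 T cell markers 2 did. Of 4 B cell markers with a probe 2 did, Cd79a at 5.84 and Cd79b at 5.97, both close to that level. The T cell list holds Cd4 at 11.11, which rat macrophages and microglia also express, while Cd3d, Cd3e and Cd3g lay between 3.34 and 4.51 on all arrays. All 12 astrocyte markers with a probe reached it on every array. Values of different probes cannot be ranked against each other, so these counts do not give the share of microglia in a culture.

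The untreated culture had the highest value for 29 of the 35 genes, beside 39.1% of 11790 genes whose highest value reached 5.83. The culture with IFN-γ and GW had the lowest value for 23 of 35, beside 32.0%. Highest with IFN-γ alone were 4 genes, Lcp1, Plek, Ptprc and Spib, beside 19.5% of all genes. Highest with IFN-γ and GW were 2, Cd163 and Runx1, beside 21.6%, and 0 were highest with SHP siRNA, beside 19.8%. In such whole cultures fewer cells of this lineage and less RNA of a gene per cell cannot be told apart.

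**Figure D1:**
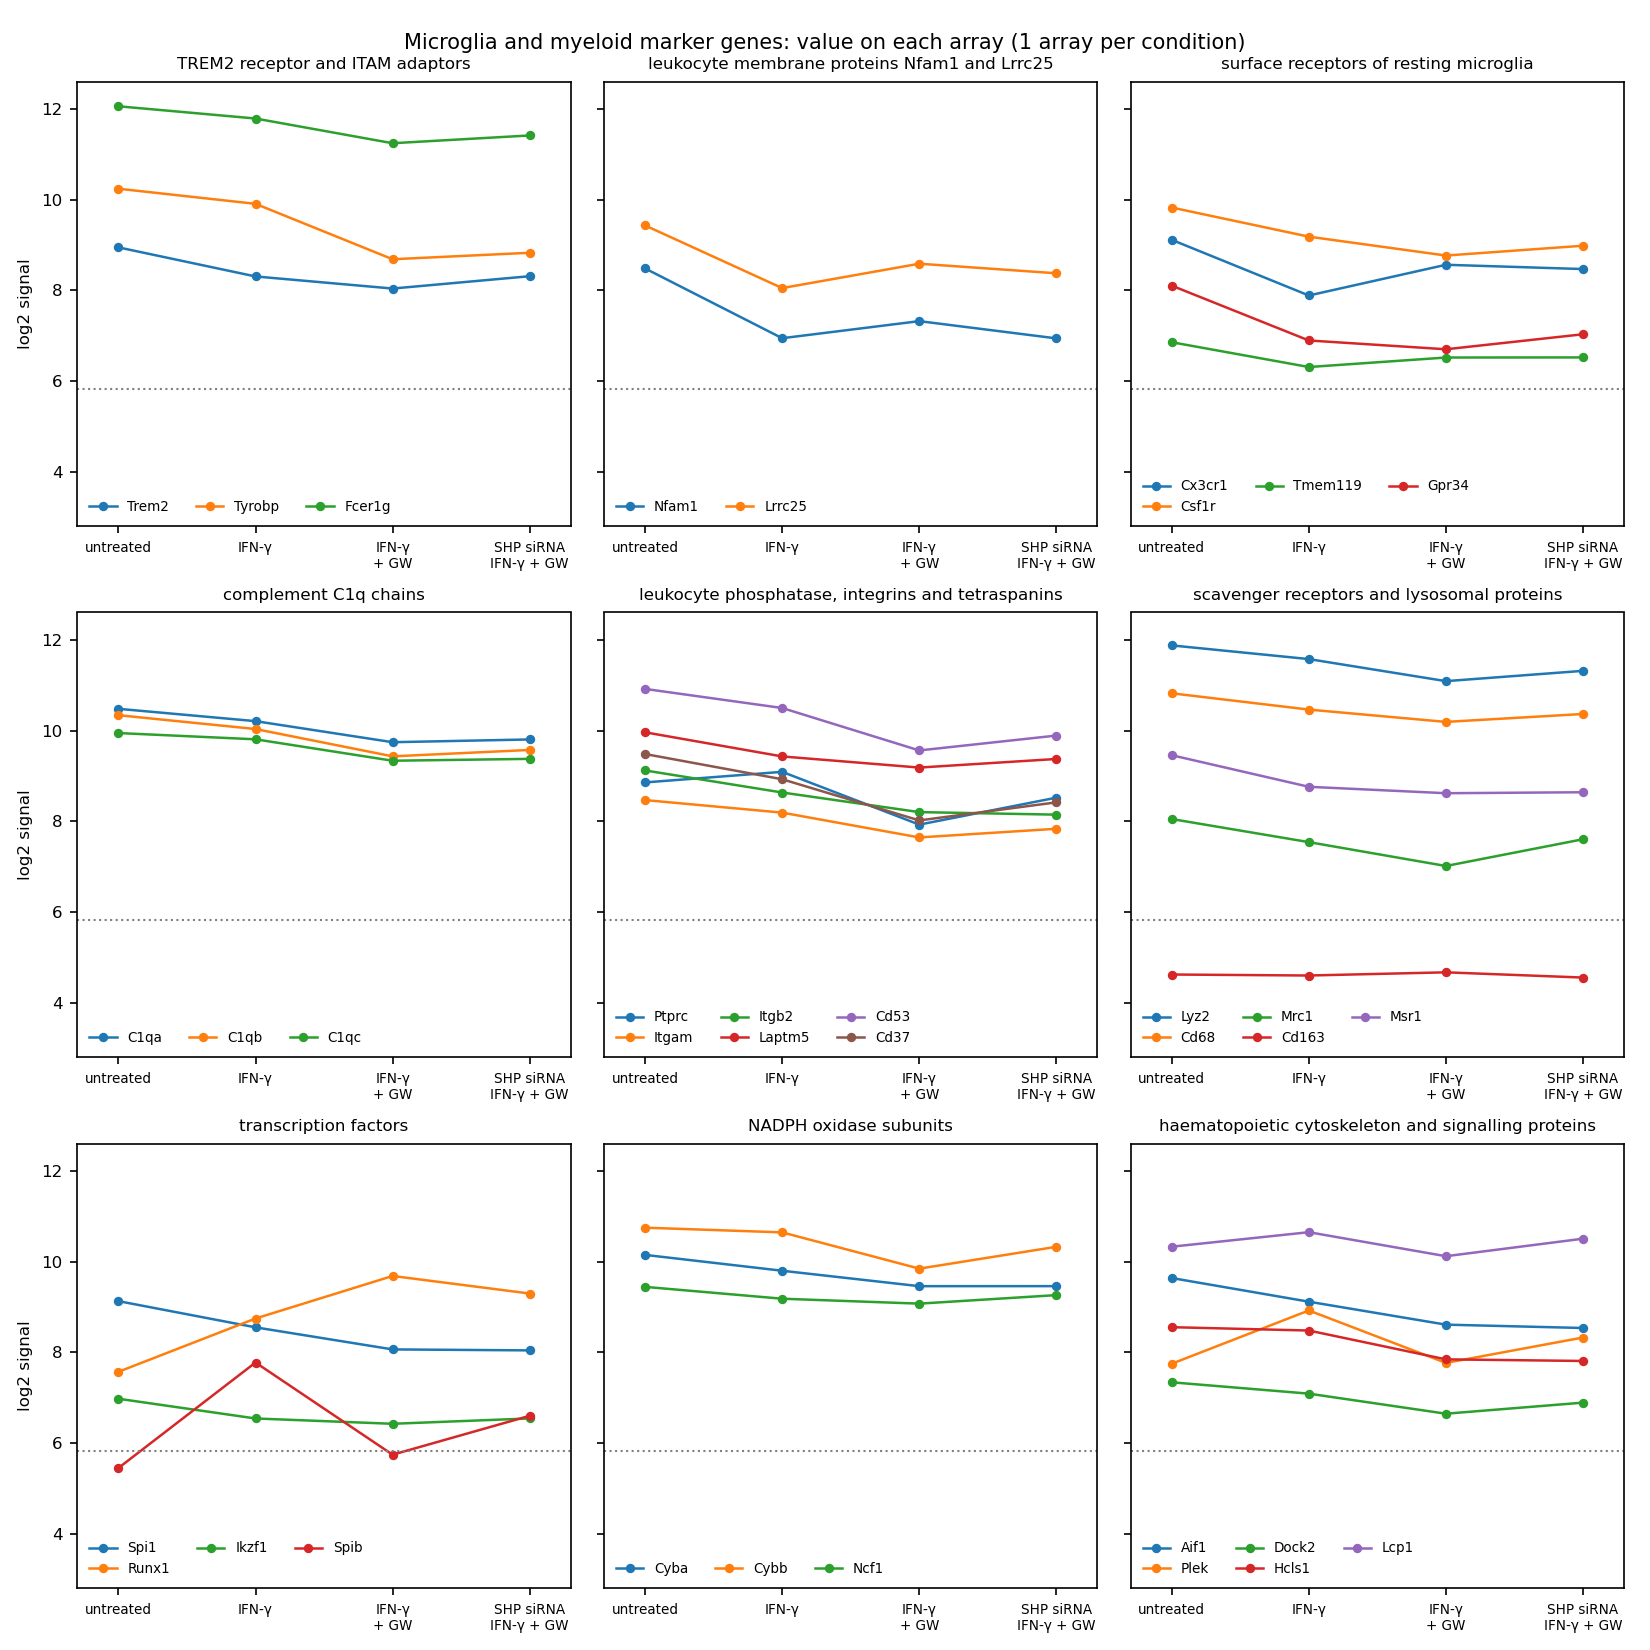
Log2 signal of the 35 marker genes on each of the 4 arrays (x axis, 1 array per condition), in 9 panels by role. Lines join the values of 1 gene and the dotted line marks 5.83, the median of all values. Most genes are highest in the untreated culture and lowest with IFN-γ and GW, while Runx1, Spib and Plek stand higher with IFN-γ than without.

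With IFN-γ, 4 of the 35 genes were at least 2-fold lower, beside 0.288% of all 11790 genes, and 3 of 35 at least 2-fold higher, beside 1.61%. The 4 were the leukocyte membrane protein genes Nfam1 and Lrrc25 and, of the 4 surface protein genes of resting microglia, Cx3cr1 and Gpr34. Nfam1, Lrrc25, Cx3cr1 and Gpr34 were 2.90-fold, 2.60-fold, 2.34-fold and 2.31-fold lower than in the untreated culture. The transcription factor genes Spib and Runx1 were 5.01-fold and 2.26-fold higher and Plek, a substrate of protein kinase C in blood cells, 2.26-fold higher. The untreated value of Spib, 5.45, lay below 5.83, so the size of its fold is uncertain. Over the 35 genes the median log2 difference was -0.35, with 30 below 0, beside a median of -0.04 and 59.8% below 0 for all 11790 genes. The middle 50% of the marker genes spanned 0.36 log2, beside 0.21 for all genes, and with GW 0.41 beside 0.37.

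With GW added to IFN-γ, the leukocyte phosphatase gene Ptprc, the adaptor gene Tyrobp, Plek and Spib were lower, while Nfam1, Lrrc25 and Cx3cr1 stood above their values with IFN-γ alone. Tyrobp was 2.33-fold lower, Ptprc 2.24-fold, Plek 2.23-fold and Spib 4.09-fold. Spib with IFN-γ and GW stood at 5.74, below 5.83, so the size of that fold is uncertain too. The median over the 35 genes was -0.46, with 29 below 0, beside -0.05 and 57.8% below 0 for all genes. At least 2-fold lower were 4 of 35, beside 0.95% of all genes, and at least 2-fold higher 0, beside 0.958%. The highest difference was that of Runx1, at 0.94, which passed 2-fold after each of 3 other scalings of the arrays. Cx3cr1 (0.68), Lrrc25 (0.54), Nfam1 (0.38), Tmem119 (0.21) and Cd163 (0.07, which turned sign after quantile normalization and after cyclic loess) also stood above 0. This comparison and the first both use the array with IFN-γ alone, whose error enters them with opposite signs.

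With SHP siRNA in place of control siRNA, under IFN-γ and GW, no marker gene differed 2-fold (0 of 35 higher and 0 lower, beside 0.144% and 0.263% of all genes). The median was 0.17, with 26 above 0, beside 0.01 and 51.5% above 0 for all genes. The highest differences were those of Spib (0.86), Ptprc and Mrc1 (both 0.59), Plek (0.56) and Cybb (0.48). The lowest were those of Runx1 (-0.39), Nfam1 (-0.38) and Lrrc25 (-0.21). This comparison shares the array with IFN-γ and GW with the one before it.

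**Figure D2:**
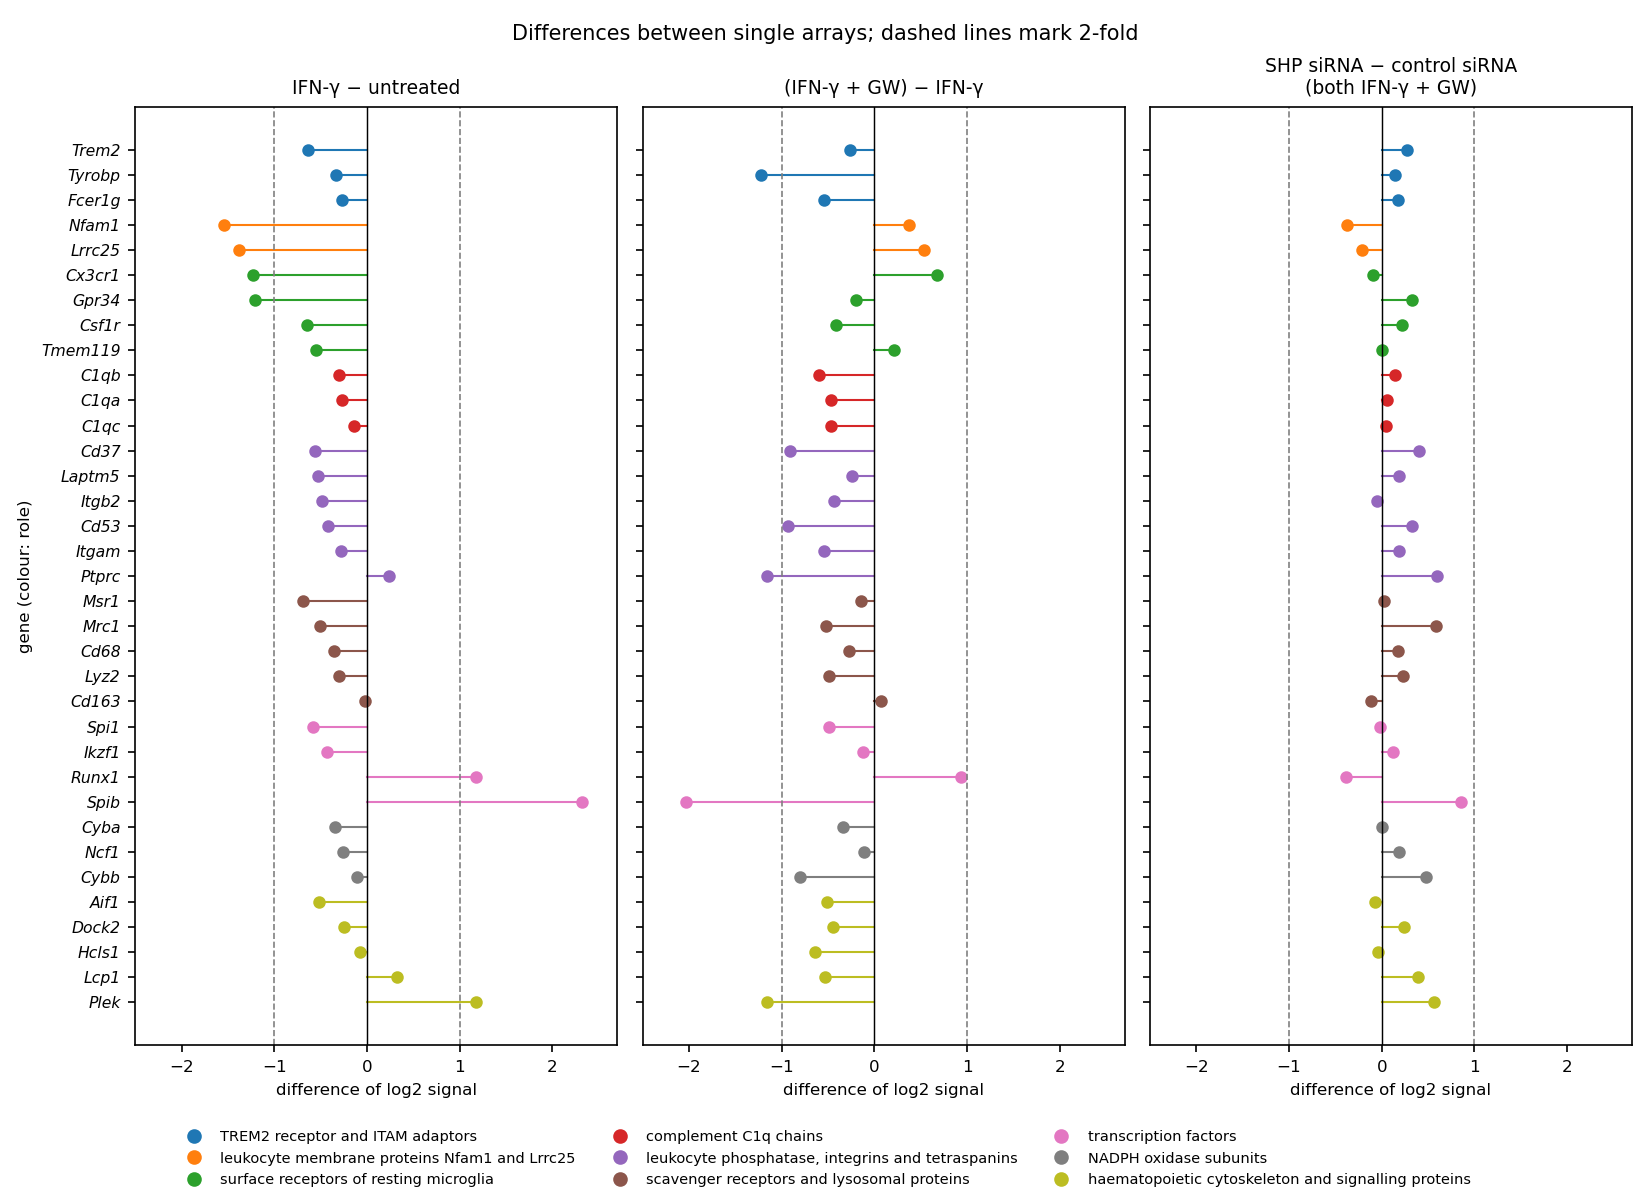
Difference of log2 signal (x axis) for each of the 35 marker genes (y axis, coloured by role) in the 3 comparisons, 1 array against 1 array. Dashed lines mark 2-fold. Nfam1, Lrrc25, Cx3cr1 and Gpr34 pass 2-fold lower with IFN-γ, Tyrobp, Ptprc, Plek and Spib with GW, and none passes with SHP siRNA (0 of 35).

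Of Trem2 and the signalling adaptors, only Tyrobp reached 2-fold, with GW (1 of 3 lower, beside 0.95% of all genes), and none did with IFN-γ (0 of 3, beside 0.288%). Trem2, a lipid and debris receptor of microglia, stood at 8.95 in the untreated culture, 8.31 with IFN-γ, 8.04 with IFN-γ and GW, and 8.31 with SHP siRNA, IFN-γ and GW. Its adaptor Tyrobp (DAP12), which carries the signalling motif that Trem2 lacks, stood at 10.24, 9.90, 8.68 and 8.83 in the same order. Most of the Tyrobp difference came with GW, and both GW arrays were low. Fcer1g, the common signalling chain of Fc receptors, stood at 12.05, 11.78, 11.24 and 11.41. Its differences were -0.27 with IFN-γ and -0.54 with GW, in the same directions as Tyrobp and smaller.

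Nfam1, a receptor with its own activation motif, and Lrrc25, a leucine-rich repeat protein of the leukocyte membrane, had the lowest differences of the 35 genes with IFN-γ. Nfam1 stood at 8.48, 6.94, 7.32 and 6.94 in the 4 cultures. Lrrc25 stood at 9.43, 8.05, 8.59 and 8.37. For both the untreated array was highest and the 3 arrays with IFN-γ lay at least 0.84 log2 below it.

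Among the surface protein genes of resting microglia, Csf1r and Gpr34 were lowest with IFN-γ and GW, and Cx3cr1 and Tmem119 with IFN-γ alone. Cx3cr1, the fractalkine receptor, stood at 9.11, 7.89, 8.56 and 8.47, lowest with IFN-γ alone. Gpr34, a lysophosphatidylserine receptor, stood at 8.10, 6.89, 6.70 and 7.03. Csf1r, the survival receptor of microglia, stood at 9.82, 9.18, 8.77 and 8.98, so that the value with IFN-γ and GW was 2.08-fold below the untreated one. Tmem119, a marker of resident microglia in adult brain, ranged over 0.55 log2, with 6.86 untreated and 6.31 with IFN-γ.

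The C1q genes encode the chains of the first complement component and lie side by side in the rat genome. They did not reach 2-fold in any of the 3 comparisons (0 of 3). The share of all genes was 0.144% to 1.61%, by comparison and direction. C1qa stood at 10.48, 10.21, 9.74 and 9.80, C1qb at 10.34, 10.03, 9.43 and 9.57, and C1qc at 9.94, 9.81, 9.33 and 9.38. The order of the 4 cultures was the same for all 3 genes. Their differences ran from -0.30 to -0.14 with IFN-γ, from -0.60 to -0.46 with GW and from 0.04 to 0.14 with SHP siRNA.

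The leukocyte phosphatase, integrin and tetraspanin genes were grouped with Laptm5. Their values were lower with GW than with IFN-γ alone in 6 of 6 cases, beside 57.8% of all genes. Of the 6, 1 (Ptprc) was at least 2-fold lower, beside 0.95% of all genes. Ptprc, which encodes the phosphatase CD45, stood at 8.86, 9.09, 7.93 and 8.52, so IFN-γ alone gave its highest value. The tetraspanin genes Cd53 and Cd37 stood at 10.92, 10.50, 9.56 and 9.89, and at 9.48, 8.93, 8.02 and 8.42. Both lay just short of 2-fold lower with GW, at -0.94 and -0.91. The integrin genes Itgam and Itgb2, whose products form the complement receptor CD11b/CD18, differed by -0.28 and -0.49 with IFN-γ and by -0.55 and -0.43 with GW. Laptm5, a lysosomal membrane protein gene of leukocytes, differed by -0.53 and -0.25.

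Of the 5 scavenger receptor and lysosomal genes 0 reached 2-fold with IFN-γ, with GW or with SHP siRNA. The share of all genes was 0.144% to 1.61%, by comparison and direction. Lyz2, which encodes lysozyme, stood at 11.87, 11.57, 11.09 and 11.31, and Cd68, a lysosomal glycoprotein of macrophages, at 10.82, 10.46, 10.19 and 10.36. The mannose receptor gene Mrc1 stood at 8.05, 7.54, 7.02 and 7.60, with a difference of 0.59 with SHP siRNA. The scavenger receptor gene Msr1 stood at 9.46, 8.76, 8.62 and 8.64, with differences of -0.70 with IFN-γ and -0.14 with GW. Cd163 differed by -0.02 and 0.07. In this group 5 of 5 lay below 0 with IFN-γ, beside 59.8% of all genes. With GW 4 of 5 did, beside 57.8% of all genes, the exception being Cd163.

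Of the 4 transcription factor genes, Spib and Runx1 were at least 2-fold higher with IFN-γ, beside 1.61% of all genes. The values of Spi1 and Ikzf1 with IFN-γ lay below the untreated one. Spi1 (PU.1) stood at 9.13, 8.55, 8.06 and 8.04, nearly the same in both GW cultures. Its relative Spib stood at 5.45, 7.77, 5.74 and 6.60. Spib thus stood out with IFN-γ alone, and its untreated value and its value with IFN-γ and GW lay below 5.83, so the size of its differences is uncertain. Runx1, a haematopoietic factor that other cell types also express, stood at 7.57, 8.74, 9.68 and 9.29. It was the 1 marker gene at least 2-fold higher with IFN-γ and GW than untreated, by 4.32-fold, beside 1.65% of all genes. Ikzf1, the lymphoid and myeloid factor Ikaros, ranged over 0.55 log2, from 6.98 untreated to 6.42 with IFN-γ and GW.

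None of the NADPH oxidase subunit genes reached 2-fold in the 3 comparisons (0 of 3). The share of all genes was 0.144% to 1.61%, by comparison and direction. Cybb, the catalytic subunit gene, stood at 10.75, 10.64, 9.84 and 10.32, with a difference of -0.80 with GW and 0.48 with SHP siRNA. Its membrane partner Cyba stood at 10.15, 9.80, 9.46 and 9.46, and the cytosolic organiser Ncf1 at 9.44, 9.18, 9.07 and 9.26. Ncf1 had the second smallest range of all marker genes, 0.37, after Cd163 at 0.12.

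Among cytoskeletal and signalling genes of blood cells, Plek and Lcp1 were above 0 with IFN-γ. The other 3 were below 0, beside 59.8% of all genes. Aif1, which encodes the microglial protein Iba1, stood at 9.64, 9.11, 8.61 and 8.54. Plek stood at 7.75, 8.92, 7.77 and 8.33, so the untreated and the IFN-γ with GW values were nearly the same. Lcp1 (L-plastin, an actin bundler) stood at 10.33, 10.65, 10.12 and 10.50, highest with IFN-γ alone. Dock2, an activator of Rac, and Hcls1, an actin regulator of blood cells, differed by -0.25 and -0.07 with IFN-γ and by -0.44 and -0.64 with GW.

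The third culture, with IFN-γ and GW, was also set against the untreated one. The median difference was -0.81 over the 35 genes, with 31 below 0, beside -0.08 and 60.3% below 0 for all genes. At least 2-fold lower were 9 of 35, beside 0.84% of all genes, and at least 2-fold higher 1, beside 1.65%. The 9 were Tyrobp (2.94-fold), Cd37 (2.76-fold), Gpr34 (2.64-fold), Cd53 (2.56-fold), Nfam1 (2.24-fold), Spi1 (2.09-fold), Csf1r (2.08-fold), Mrc1 (2.05-fold) and Aif1 (2.04-fold). This difference is the sum of the first 2 and adds no measurement to them.

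The other genes of the lineage were taken from a list of 75, of which 65 had a probe and 60 reached 5.83 on at least 1 array. With IFN-γ their median was -0.36, with 49 of 60 below 0 (59.8% of all genes), 8 at least 2-fold lower (0.288% of all genes) and 2 at least 2-fold higher (1.61% of all genes). The 8 were P2ry6 (-1.69), Lpar5 (-1.34), Marchf1 (-1.30), Cd180 (-1.27), Gpr18 (-1.25), Cyth4 (-1.21), Arhgap25 (-1.20) and Cd200r1 (-1.17). They include receptors for nucleotides (P2ry6), lysophosphatidic acid (Lpar5) and the inhibitory ligand CD200 (Cd200r1). The 2 higher genes were the costimulator gene Cd86 (1.30) and the interferon-responsive factor gene Irf8 (1.01). P2ry12, a defining nucleotide receptor of resting microglia, stood at 7.43, 6.91, 6.63 and 7.06. P2ry13, another nucleotide receptor gene of the list, went the other way with IFN-γ, at 7.39, 8.01, 7.71 and 7.97.

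With GW the same list had a median of -0.30, with 44 of 60 below 0 (57.8% of all genes), 3 at least 2-fold lower (0.95% of all genes) and 0 higher (0.958%). The 3 were the β-glucan receptor gene Clec7a (-1.53), Cd86 (-1.30) and the lipopolysaccharide co-receptor gene Cd14 (-1.25). With SHP siRNA its median was 0.00, with 31 above 0 (51.5% of all genes) and 29 below. The sign of that median turned after 2 other scalings. At 2-fold there were 0 of 60, beside 0.144% of all genes higher and 0.263% lower. Cd86 (0.87), C3ar1 (0.68), Tlr2 (0.58) and Fyb1 (0.56) differed most with SHP siRNA. The marker genes' median of 0.17 in that comparison was therefore not matched by the wider list, a difference between lists that was not tested.

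Some markers of monocytes and of border macrophages, which line the meninges and vessels, also passed 5.83. Of 10 with a probe 6 did, beside 11790 of all 18166 genes, so the count does not set this list apart. Among the 6, the folate receptor gene Folr2 stood at 10.35, 10.06, 9.43 and 9.83. The platelet factor gene Pf4 stood at 8.43, 7.97, 7.45 and 7.78. Stab1 and Plac8 went the other way with GW (0.32 and 0.03) and with SHP siRNA (-0.08 and -0.19). Lyve1 and Ccr2 stayed below 5.83 on every array. The 6 genes had a median of -0.35 with IFN-γ, -0.54 with GW and 0.06 with SHP siRNA. Of the 6, 0 reached 2-fold in any of these comparisons, beside 0.144% to 1.61% of all genes, by comparison and direction.

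Of 8 genes for ligands of the marker receptors, 3 were at least 2-fold higher with IFN-γ (Cx3cl1, Icam1 and Csf1), beside 1.61% of all genes. The differences of the other 5 ran from -0.14 to 0.38, with 3 below 0, beside 59.8% of all genes. Cx3cl1, the ligand of Cx3cr1, stood at 9.47, 11.99, 10.41 and 11.17. Among the 3 control siRNA cultures it was highest with IFN-γ alone, where Cx3cr1 was lowest. Icam1, a ligand of the CD11b/CD18 integrin, stood at 10.19, 12.39, 12.01 and 12.34. Csf1, a ligand of Csf1r, stood at 10.17, 11.76, 11.60 and 11.85, while Il34, its other ligand, stayed between 7.77 and 8.02. With GW 1 of the 8, Cx3cl1, was at least 2-fold lower, beside 0.95% of all genes.

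Astrocyte markers had medians nearer to 0 than the 35 marker genes with IFN-γ and with GW. With SHP siRNA the 2 medians were close, at 0.14 and 0.17. The median over the 12 astrocyte markers was 0.07 with IFN-γ and -0.17 with GW. In each comparison 0 of the 12 reached 2-fold, beside 0.144% to 1.61% of all genes, by comparison and direction. Gfap, the astrocyte filament gene, stood at 12.03, 12.06, 12.11 and 12.06. Other astrocyte markers differed more. The greatest differences were those of Aqp4 with IFN-γ (0.53) and with SHP siRNA (0.71), and of Slc1a3 with GW (-0.38). Reference genes had medians of 0.00, -0.06 and -0.04 over 9 genes. Single reference genes were less still, and with GW they ran from -0.45 (Hprt1) to 0.33 (Polr2a). Meningeal and fibroblast markers had medians of 0.01, -0.05 and 0.26 over 6 genes, with Col3a1 at 0.71 with SHP siRNA. The 0.26 and the median of 0.44 over 2 endothelial markers with SHP siRNA lay above that of the marker genes. With GW the endothelial median was -0.38, beside -0.46 for the marker genes. The part of a difference in cell make-up between the cultures in these values was not tested.

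**Figure D3:**
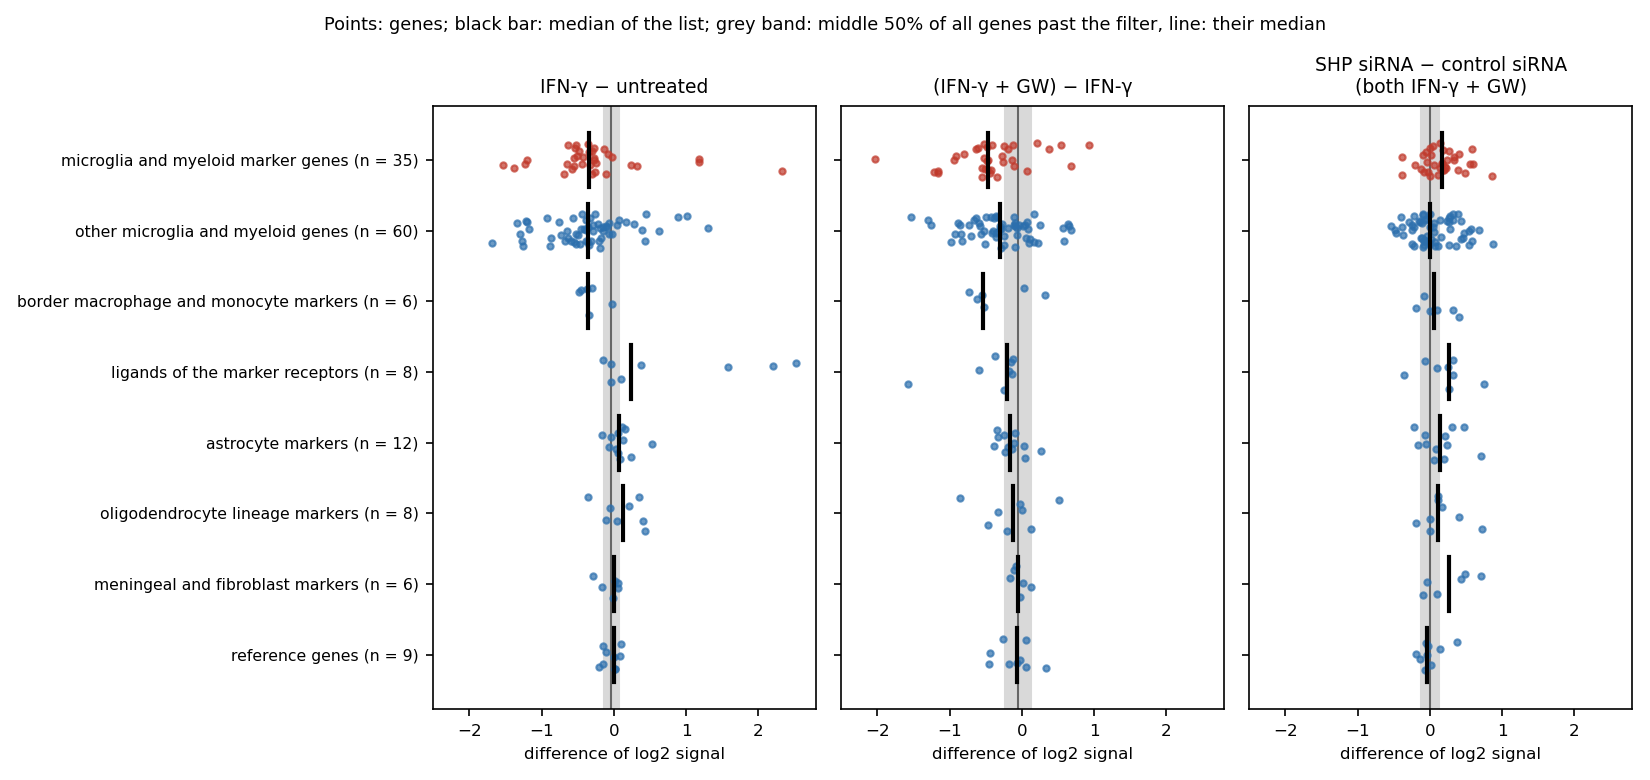
Difference of log2 signal (x axis) in the 3 comparisons for the 35 marker genes and for 7 other lists (y axis), 1 point per gene, with the list median as a black bar and the middle 50% of all 11790 genes as a grey band. Both microglial lists lie to the left of the band's centre with IFN-γ and with GW, at medians of -0.35 and -0.36, and -0.46 and -0.30. The list of ligands also holds Cd200 and Tgfb1, whose receptors are not among the 35 marker genes.

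The IFN-γ comparison and the SHP siRNA comparison have no array in common. Across the 35 marker genes, which are not independent replicates, their differences had a Pearson r of 0.47 and a Spearman rho of 0.29. Without Spib, which lies far from the rest, r was 0.27 and rho 0.22, so much of the relation rests on that gene. The 60 other lineage genes gave 0.58 and 0.46, and all 11790 genes 0.15 and 0.08. Of the 5 marker genes above 0 with IFN-γ (Lcp1, Plek, Ptprc, Runx1 and Spib), 4 were also above 0 with SHP siRNA, Runx1 being the other. Of the 30 below 0 with IFN-γ, 22 were above 0 with SHP siRNA and 8 below. Above 0 with SHP siRNA were 26 of all 35 marker genes, beside 51.5% of all genes. The split by the direction with IFN-γ therefore shows little beyond that share of the marker genes.

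**Figure D4:**
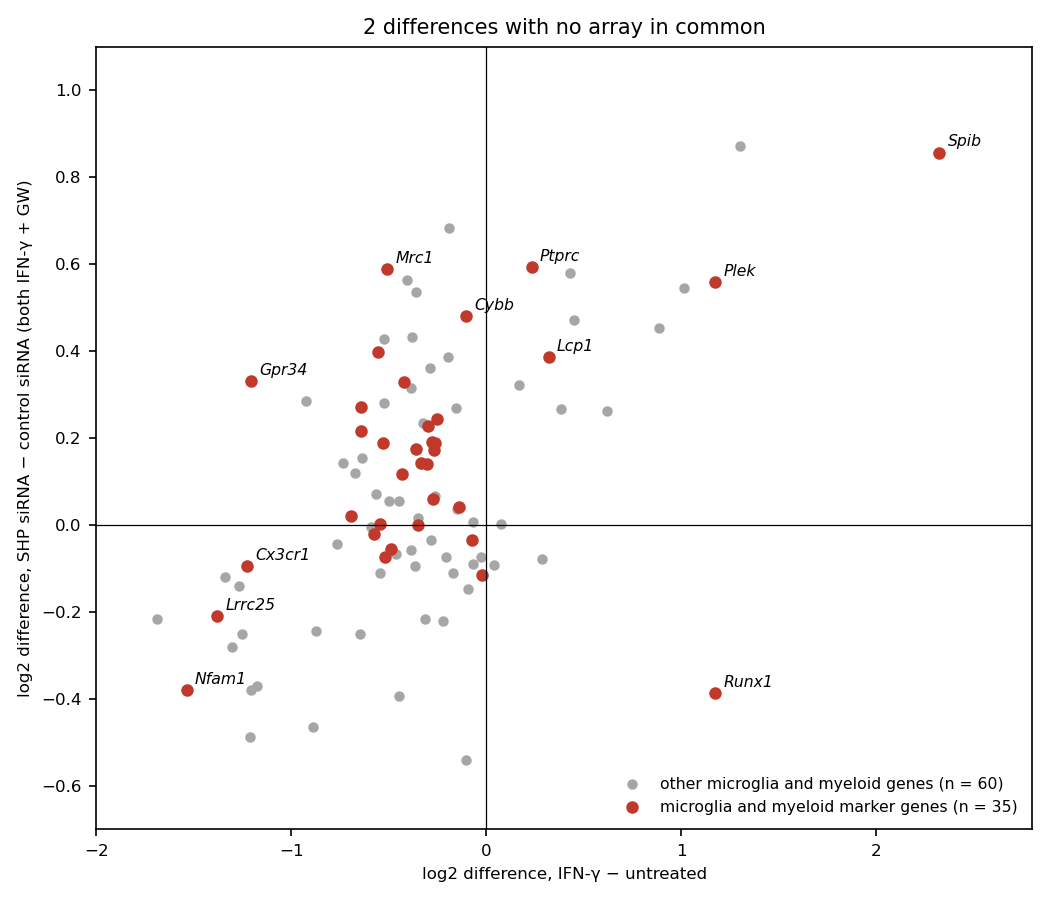
Log2 difference with IFN-γ (x axis) against log2 difference with SHP siRNA under IFN-γ and GW (y axis) for the 35 marker genes (red) and 60 other microglia and myeloid genes (grey). Spib lies at the upper right, at 2.32 and 0.86, Runx1 at the lower right and Nfam1 and Lrrc25 at the lower left.

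Split by promoter letters, the 16 marker genes with a PU box had medians of -0.43 with IFN-γ, -0.46 with GW and 0.24 with SHP siRNA. The 9 with a window but no box, which include Spib, Runx1, Cx3cr1 and Nfam1, had -0.26, -0.11 and -0.04. The 10 with no window in the table had -0.41, -0.50 and 0.03. These medians are descriptions of small sets.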

How the data were processed

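Total RNA of 4 cultures was measured on 4 single-colour arrays, 1 per group, with biotin-labelled sense cDNA, per the labels' protocols. The authors deposited 1 value per probe, read here as log2 signal because the values run from 1.14 to 13.4. The log base, background correction, probe summary and normalization are not stated in the sources used here, so every fold rests on that reading. Of 29489 probes 18511 have 1 gene symbol, 575 several and 10403 none, and only the first kind was named. Where a gene had several probes, the one with the highest mean stood for it. The background set is the 11790 genes whose highest value reached 5.83, the median of all values, and 34 of the 35 marker genes passed it. The 35 were all kept in every count. The other 12 lists hold 181 genes, of which 159 had a probe of 1 symbol. The members and lists were chosen with earlier results of these data known.

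Comparisons are differences of log2 values between 2 arrays, called at 2-fold, with no test. All 35 marker genes could be named. From every other list the rule allowed, in each comparison, the 4 genes with the greatest difference and all genes of a count of 5 or fewer. The other called genes of the lineage list were named after their values were seen, as were the 5 promoters shown. So were P2ry12, P2ry13, Il34, Gfap, Folr2, Pf4, Stab1, Plac8, Lyve1, Ccr2 and the Cd3 genes. Alternatives were quantile normalization and cyclic loess (limma 3.58.1 in R 4.3.3), median centring, other filters, the mean of probes, the mean of a list, and thresholds of 1.5-fold and 3-fold. The remaining steps used Python 3.11.15. The differencing step was tested on simulated data.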

Additional observations from a re-analysis of the deposited data

How the results depend on the processing

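The medians of the 35 marker genes kept their sign in all 3 comparisons under quantile normalization, median centring, cyclic loess, the mean of probes, the filter on the mean and the mean of the list, and moved by less than 0.1 log2. So they did over the 34 genes past the filter, an alternative added once the data had been seen. With SHP siRNA the median of the other lineage genes lay at 0 for practical purposes and turned sign, to -0.0013 after median centring and -0.0055 after cyclic loess. The count of marker genes at least 2-fold higher with GW was 1, Runx1, in place of 0 after quantile normalization, median centring and cyclic loess. At 1.5-fold the counts of 35 were 7 lower with IFN-γ (1.59% of all genes at that threshold), 9 lower and 2 higher with GW (4.97% and 2.82%), and 3 higher with SHP siRNA (1.42%). At 3-fold they were 0 lower and 1 higher with IFN-γ (0.017% and 0.679%) and 1 lower with GW (0.221%). Of the 105 single differences 3 turned sign under some scaling, Cd163 with GW and Tmem119 and Cyba with SHP siRNA, all within 0.07 of 0. A pseudocount was not needed for log2 values and was not run. No paired analysis was possible because each group has 1 array. Values below 5.83 may sit at background, which limits Spib, Cd163, Lpar5 and Marchf1, among others. With 1 array a group the spread between cultures is unknown.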
